A study of Homo sapiens with 30 samples.

Results

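The genes described here are the epithelial alarmins IL33, TSLP and IL25 of type 2 immunity and the receptor chains and signal carrier that belong to this pathway, IL4R, IL13RA1, IL13RA2, IL2RG, STAT6, IL17RB and CRLF2. They were found by their gene name in the array annotation, which gave 10 genes with 15 probes among the 58201 probes of the array. There were 6 genes with 1 probe each, while IL4R, IL13RA1, IL2RG and CRLF2 had several.

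Alarmins are cytokines that barrier epithelium releases on damage or allergen contact, and they prompt lymphoid cells and mast cells to make the type 2 cytokines IL-4, IL-5 and IL-13. TSLP binds CRLF2 together with IL7R, and IL-25 binds IL17RB together with IL17RA. IL-4 and IL-13 in turn act on the epithelium through IL4R, which pairs with IL2RG for IL-4 or with IL13RA1 for both cytokines and passes the signal to the transcription factor STAT6, while IL13RA2 binds IL-13 with high affinity and is known as a decoy.

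BEAS-2B is a human bronchial epithelial line immortalized with viral genes, grown here on Transwell membranes and lifted to the air-liquid interface before exposure. Cultures were exposed to whole birch pollen, of which 10 mg was dispersed into the whole chamber, or to air without pollen. The paper describes the controls as shielded from the pollen by a mesh. The RNA of 3 cultures per exposure was measured on 1-colour Agilent arrays at each of 5 times. These ran from 10 min and 55 min through 2h25 min and 6h50 min to 24 h. All groups share the line, the membrane culture and the air lift, so the comparison is of pollen with air handling at the same time, in 1 immortalized line. Values are the log2 of the background-subtracted spot signal minus the 75th percentile of the same array, so that 0 is the brightness of the 75th percentile probe, and a spot counts as well above background where the scanner software marked it so. A level of 1 probe cannot be set against that of another probe, because probes differ in brightness per molecule.

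The 30 arrays lay on 5 slides. All 6 arrays of 6h50 min shared 1 slide that held no other time, and they were dimmer, with 75th percentiles of 578 to 1151 intensity units against 1044 to 2111 on the other 24 arrays, so that this time and its slide cannot be told apart. Pollen replicate 1 of 55 min was on an array of another design, alone on its slide. Air and pollen at 10 min, 6h50 min and 24 h lay on 1 slide each, apart from the air array of 55 min and the pair of 2h25 min that shared those slides. Of 9 genes listed for a bronchial epithelial line, KRT5, KRT7, KRT8, KRT18, KRT19, EPCAM, CDH1 and VIM passed the mark for background on every array. TP63 did on 21. Of the markers of other cell types, the mast cell genes KIT and TPSAB1 were well above background on 1 and 0 arrays, whereas the leukocyte genes PTPRC and CD14 and the stromal genes COL1A1, PDGFRB and DCN were on all 30. The part of these genes in the results was not tested.

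Several of the genes are read by probes at distant places of the same transcript, and for IL4R and IL13RA1 these probes behaved differently over time. The IL4R probe with the highest mean signal starts at position 3523 of the transcript that the array design names, at chr16:27375999-27376058 of hg19 on the plus strand, and a second one starts at position 650, at chr16:27357879-27357938. The last starts at position 271 of another IL4R transcript, at chr16:27352462-27352521. IL13RA1 has a probe at position 3905, at chrX:117928406-117928465, and one at position 667 whose bases lie on both sides of an intron between chrX:117892164 and chrX:117895118. The sequences of the probes at positions 650 and 667, of 60 bases each, are shown here in lower case because these probes moved against the downstream probe of the same gene over time.
IL4R, position 650: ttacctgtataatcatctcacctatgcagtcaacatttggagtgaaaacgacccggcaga
IL13RA1, position 667: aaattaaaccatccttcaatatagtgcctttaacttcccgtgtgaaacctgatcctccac
The IL4R probe held 43.3% G and C and the IL13RA1 probe 40.0%.

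Detection separated the genes into those with a measurable level throughout and those near background. IL4R, IL13RA1 and STAT6 each had a probe that was well above background on all 30 arrays, and both IL13RA1 probes did, which made 4 probes in all. The alarmin IL25, the decoy receptor IL13RA2 and the IL-25 receptor IL17RB had 1 probe each and were near background throughout. IL25 and IL13RA2 were well above background on 0 of 30 arrays, and IL17RB was so on 1, air replicate 2 at 2h25 min. No level of these 3 genes was measured in air or in pollen, and the arrays do not tell whether they are transcribed below this limit.

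The other 8 probes, of 5 genes, were well above background on 6 to 29 arrays. IL33 passed on 13 arrays and TSLP on 18. The probes of IL2RG, the shared gamma chain, passed on 29 arrays at position 1457 and on 6 at position 855. For CRLF2, the TSLP receptor chain, the probe at position 422 passed on 24 arrays and the probe at position 274 on 12. The array annotation gives CRLF2 on the Y chromosome copy of a region that the X and Y chromosomes share, so the 2 copies are not told apart.

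**Figure D1:**
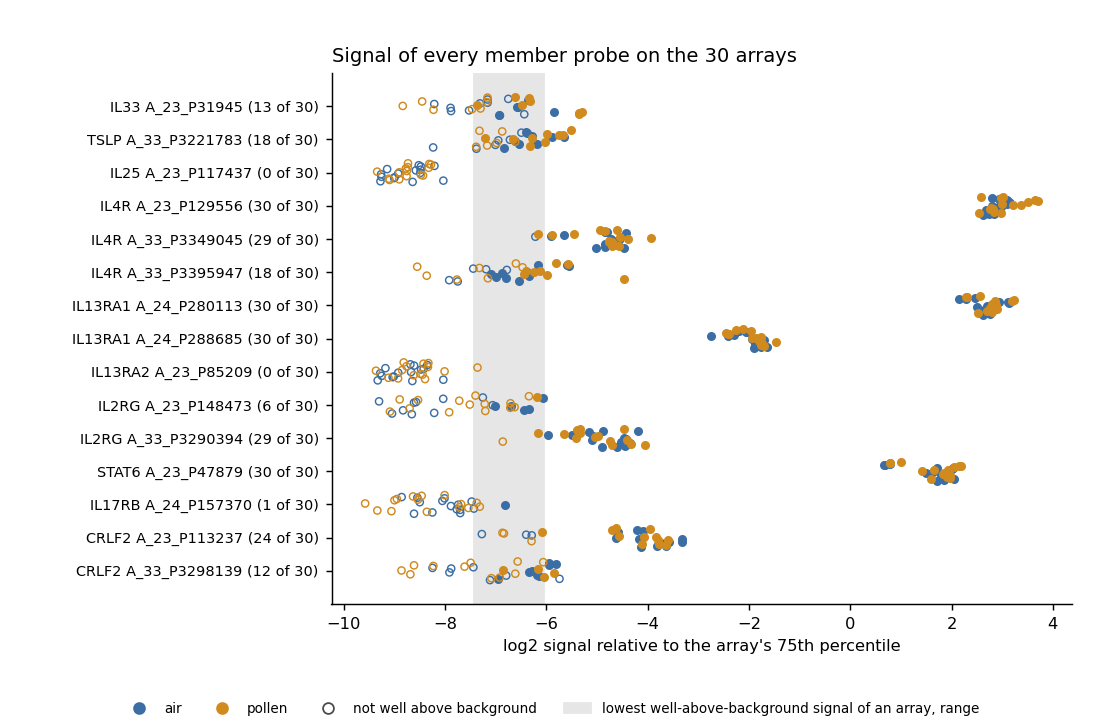
Each point is 1 of the 30 arrays, with the log2 signal relative to the array's 75th percentile on the x axis and 1 row per probe; filled points are well above background, open points are not, and the grey band spans the lowest signal that was well above background on each array. IL25 and IL13RA2 show open points only, while IL4R A_23_P129556, both IL13RA1 probes and STAT6 show filled points only.

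Detection also followed the slides. The CRLF2 probe at position 422 was well above background on every array of the slides that held 10 min, 2h25 min and 24 h, on 1 of 6 arrays of the 6h50 min slide and not on the array of the other design. TSLP went the other way, since it passed on 6 of 6 arrays at 6h50 min, the dimmer slide.

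Which of these genes differed between pollen and air was asked for 11 probes of 7 genes, those detected above background in each of the 3 arrays of 1 group or more. None passed the threshold of limma with Benjamini-Hochberg adjustment over all 32099 tested probes at any time, where the share of all tested probes that passed was 0.0% at 10 min, 0.00312% at 55 min, 0.0343% at 2h25 min, 0.0436% at 6h50 min and 0.00312% at 24 h. None passed for the mean of the 5 times either, with a background of 0.00935%. IL33 was tested only through the pollen arrays of 10 min and the CRLF2 probe at position 274 only through the air arrays of 24 h, so their values at these times were high in that group by the choice of probes and are given without a test. At an unadjusted p under 0.05, there were 0 of the other 10 probes at 10 min, 2 of the 11 at 55 min (IL2RG and CRLF2), 1 at 2h25 min (IL4R), 1 at 6h50 min (IL4R) and 0 of the other 10 at 24 h, while 1.83%, 5.08%, 2.98%, 7.44% and 3.61% of all tested probes were under it. For the mean of the 5 times 1 probe was (IL4R), against 3.53% of all.

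The change of the pollen effect from each time to the next was tested as well, and no member passed, where the shares of all probes were 0.0%, 0.0%, 0.00312% and 0.0%. At an unadjusted p under 0.05, none of the 10 probes other than IL33 was found from 10 min to 55 min, with 3.77% of all probes, and IL4R alone from 6h50 min to 24 h, at -0.57 with 5.16% of all probes. For the steps between, none of the 11 was found, against 1.38% and 5.6% of all.

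**Figure D2:**
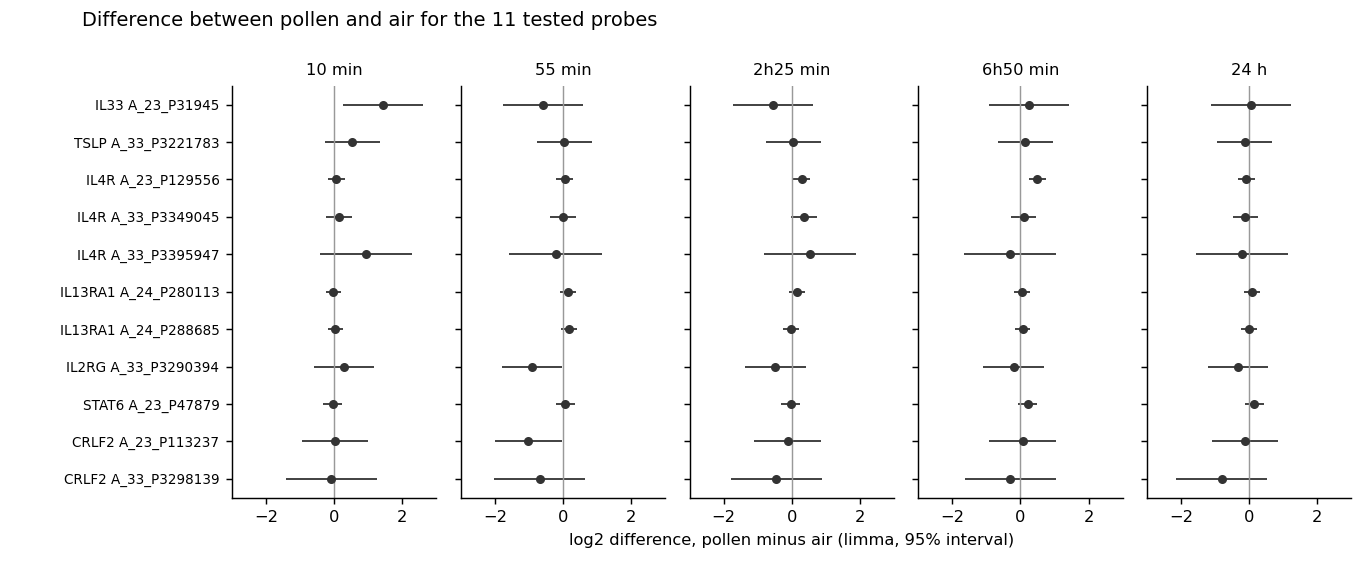
Points give the log2 difference of pollen minus air for the 11 tested probes at each time, and lines its 95% interval from limma. The interval lies above 0 for IL4R A_23_P129556 at 2h25 min and 6h50 min, yet neither passed after adjustment over all probes, and the value of IL33 at 10 min is a description because its pollen arrays of that time put it among the tested probes.

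IL4R, the chain used by both IL-4 and IL-13, showed its widest separation at 6h50 min. At the downstream probe the air arrays read 3.10, 3.16 and 3.13 and the pollen arrays 3.51, 3.71 and 3.64. All pollen arrays were above all air arrays, and the difference of 0.49 (SE 0.12, limma adjusted p = 0.131) was a 1.40-fold higher signal with a 95% interval of 1.18 to 1.67. Of all probes at this time, 6.51% had every pollen array above every air array. The call depended on the processing, since the probe passed with normexp background correction, at 0.77 (limma adjusted p = 0.0283), with normexp and quantile normalization, at 0.73 (adjusted p = 0.022), and with array weights, at 0.48 (adjusted p = 0.0254), where 0.467%, 0.947% and 1.65% of all tested probes passed. Over all settings tried that left out no array, the adjusted p ran from 0.022 to 1.00.

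At 2h25 min the same probe read 2.91, 2.98 and 2.80 in air and 3.21, 3.38 and 3.00 in pollen. The arrays did not overlap, and the difference was 0.30 (SE 0.12, limma adjusted p = 1.00). It was 0.34 within the slide that held replicates 1 and 2 of both exposures, and 2.85% of all probes had every pollen array above every air array. The probe at position 650 also separated the exposures at this time, with -4.68, -4.56 and -4.73 in air and -4.39, -3.94 and -4.54 in pollen.

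The other times showed no separation at this probe. At 10 min the downstream probe read 2.63, 2.73 and 2.83 in air and 2.55, 2.97 and 2.84 in pollen, and at 24 h 3.09, 2.93 and 2.80 against 2.98, 2.58 and 3.02. The exposures overlapped at both times, as they did at 55 min, with 2.72, 2.80 and 2.68 against 2.75, 2.83 and 2.78. Over the 5 times, the mean difference was 0.16 (SE 0.05, limma adjusted p = 1.00), with pollen higher than the air array of the same replicate number in 12 of 15 cases. An exact two-sided permutation of the exposures within each time gave p = 0.0165 for this mean, and 0.0661 after adjustment over the 4 probes that were above background on every array. That permutation leaves out the replicate number. Exchanging the exposures only within the 15 pairs of arrays of 1 number and time, a test added after the data were seen, gave an exact p of 0.0249, and 0.0942 after adjustment.

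At 6h50 min the exposures separated at the downstream probe of IL4R and overlapped at the upstream one. The probe at position 650 read -6.22, -5.91 and -5.65 in air and -5.88, -5.45 and -6.16 in pollen, and its difference was 0.09 (95% interval -0.28 to 0.47) against 0.24 to 0.74 at the downstream probe. These intervals overlap, and the difference between the probes was not tested. The probe at position 650 was close to background at this time, with 2 of 3 air arrays and 3 of 3 pollen arrays well above it. The probe at position 271 was not well above background on any array of 6h50 min. That probe was also unsteady elsewhere, as pollen replicate 2 at 10 min read -4.46 where the other 5 arrays of this time lay between -7.92 and -6.54.

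**Figure D3:**
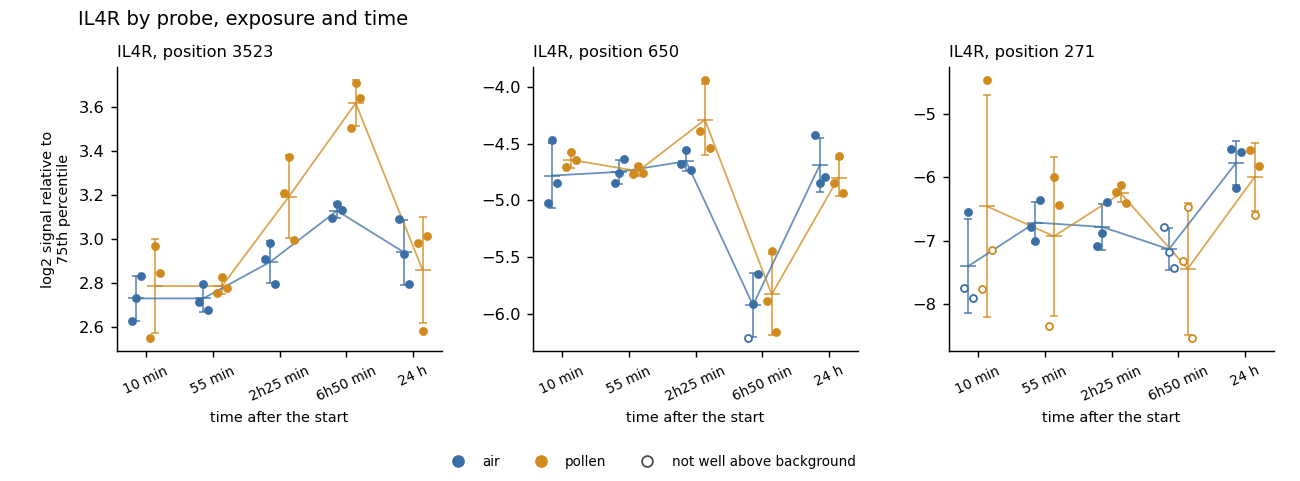
The 3 panels show the IL4R probes by their start in the transcript, with time on the x axis and log2 signal relative to the array's 75th percentile on the y axis; points are arrays, bars the mean and SD of 3, and open points are not well above background. At position 3523 the pollen arrays of 6h50 min lie at 3.51 to 3.71 above air at 3.10 to 3.16, whereas the arrays overlap at position 650, which was lowest at that time.

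IL13RA1, which completes the receptor used by both IL-4 and IL-13, and STAT6, the transcription factor below it, did not pass for pollen against air. For IL13RA1 the 95% intervals of the 5 differences lay between -0.25 and 0.40 at both probes, and for STAT6 between -0.32 and 0.49. At 6h50 min STAT6 read 2.02, 2.02 and 1.71 in air and 2.04, 2.19 and 2.15 in pollen, and at 24 h 0.67, 0.68 and 0.78 against 0.79, 0.78 and 1.01. All pollen arrays were above all air arrays at both times, at 24 h by a margin that rounding hides, with differences of 0.21 (SE 0.14, limma adjusted p = 0.847) and 0.15 (SE 0.14, adjusted p = 1.00). At 24 h, 5.33% of all probes had such an order. IL13RA1 had it at 55 min at the downstream probe, with 2.65, 2.65 and 2.73 in air and 2.90, 2.80 and 2.77 in pollen, where the background was 4.73%.

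Among the alarmins, IL33 read higher in pollen than in air at 10 min. Its signal was -6.92, -6.94 and -6.44 in air, with 1 of 3 arrays well above background, and -5.36, -5.36 and -5.29 in pollen, with 3 of 3. The pollen arrays lay close together, and the difference of the means was 1.43. This is a description with no test, since these pollen arrays are the only group through which IL33 was tested and the group where it is high. The size of the difference depended on the background correction, as it was 0.32 with normexp and 0.55 in the deposited table of log2 values. The air array of 55 min on the same slide read -5.85, closer to the pollen than to the air arrays of 10 min.

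At later times IL33 of pollen and air overlapped. At 55 min it read -5.85, -7.88 and -7.53 in air and -8.23, -7.47 and -7.30 in pollen, with 1 of 6 arrays well above background. At 2h25 min it read -7.89, -6.56 and -6.59 against -8.84, -7.36 and -6.48, with 4 of 6. At 6h50 min 1 of 6 arrays passed, and at 24 h 3 of 6 did, with values of -6.35, -7.16 and -6.75 against -6.33, -7.16 and -6.61. The probe lies at chr9:6257372-6257431, and it is the only one for IL33, so no other probe bears on these values.

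TSLP, at chr5:110413656-110413715, overlapped between pollen and air at every time. The difference ran from -0.14 at 24 h to 0.53 at 10 min, with SEs of 0.39, so that these 3 arrays per group left a wide range open. At 10 min the 95% interval was -0.28 to 1.33. For IL25 the 3 pollen arrays were above the 3 air arrays at 55 min, as were those of IL13RA2. Of the tested probes, which did not include these genes, 4.73% had this order at 55 min. For IL17RB the mean at 6h50 min was -8.01 in air and -8.83 in pollen. The spots of IL25, IL13RA2 and IL17RB were not well above background there and hold no measured difference.

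The differences of IL2RG and CRLF2 at 55 min rested on 1 array. IL2RG at position 1457 read -4.41, -4.35 and -4.53 in air and -6.86, -4.75 and -4.41 in pollen, and CRLF2 at position 422 read -3.73, -3.57 and -3.33 against -6.29, -3.79 and -3.60. The low value of both genes came from pollen replicate 1, the array of the other design, where neither was well above background. The differences were -0.91 (SE 0.43) and -1.02 (SE 0.47), both with a limma adjusted p of 0.92, and they were -0.15 and -0.16 without that array. The second CRLF2 probe, at position 274, read -5.95, -5.81 and -5.96 in air and -7.50, -6.06 and -6.57 in pollen at 24 h. Only the air arrays were well above background there, and the probe was tested only through them, so the lower pollen values are a description. The other CRLF2 probe overlapped, with -4.59, -4.09 and -4.21 in air and -4.70, -3.95 and -4.63 in pollen.

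**Figure D4:**
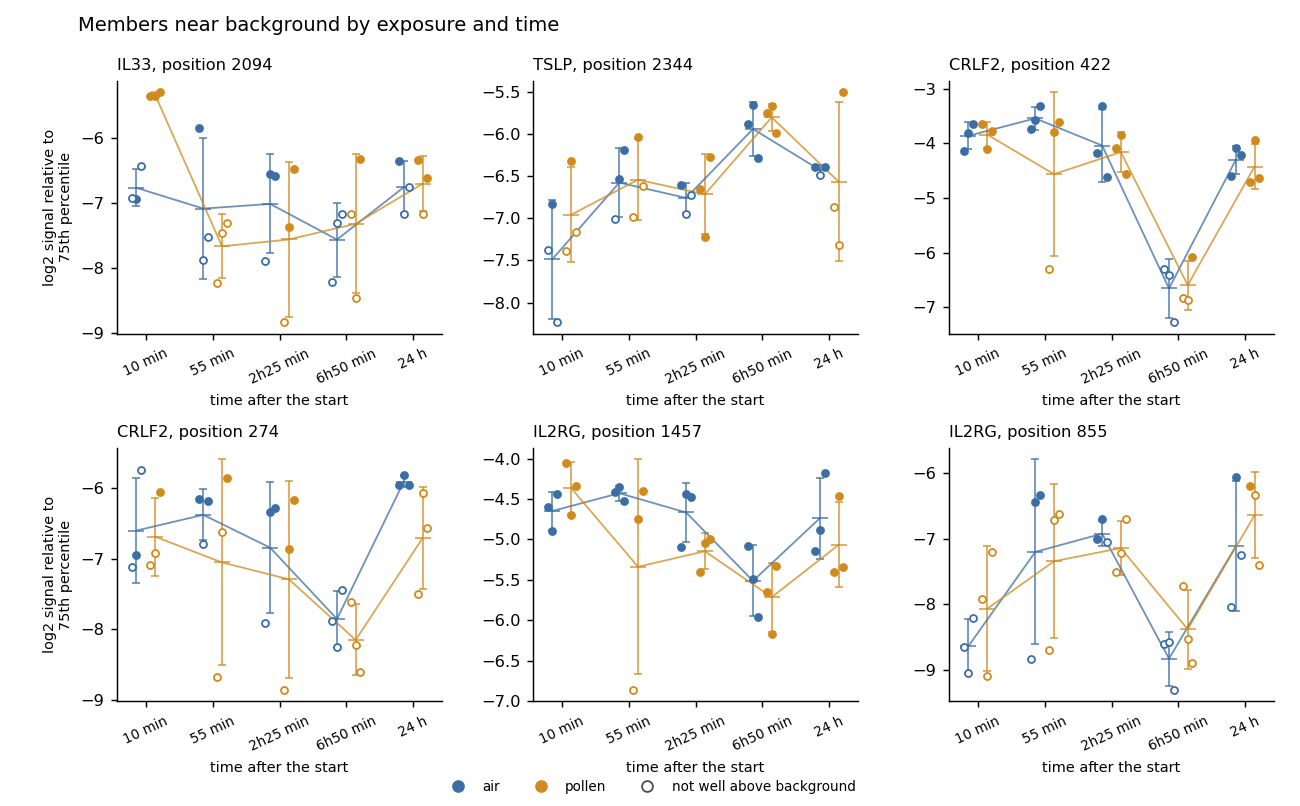
Panels show the members that were near background on part of the arrays, with time on the x axis and log2 signal relative to the array's 75th percentile on the y axis; points are arrays, bars the mean and SD of 3, and open points are not well above background. The pollen arrays of IL33 at 10 min lie at -5.36 to -5.29, and the first pollen array of 55 min is an open low point for IL2RG at position 1457 and CRLF2 at position 422.

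The time series itself was asked next, with air and pollen averaged at each time. No member probe passed between 10 min and 55 min, where 3.42% of all tested probes passed, or between 55 min and 2h25 min, where 0.654% did. At an unadjusted p under 0.05 there were 2 of the 11 in the first step (IL33 and TSLP) and 2 in the next (both IL4R), with 19.9% and 12% of all probes. For IL33 the first step starts from the time whose pollen arrays put it among the tested probes. Between 2h25 min and 6h50 min 7 of 11 passed, between 6h50 min and 24 h 8 did, 1 of them the CRLF2 probe at position 274 that was tested through the air arrays of 24 h, and between 10 min and 24 h 4 did, against 49.7%, 55.9% and 52.9% of all tested probes. The median of all tested probes moved by -0.136 into 6h50 min and by 0.129 out of it, and it moved by 0.27 and -0.199 with normexp, so changes are also given relative to it.

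STAT6 fell by 24 h. Its 6 arrays at 24 h read 0.67 to 1.01, and the 24 arrays of the other times read 1.42 to 2.19, with no overlap. The change from 6h50 min was -1.24 (SE 0.10, limma adjusted p = 1.87e-09) and from 10 min -1.06 (SE 0.10, adjusted p = 8.36e-09), and relative to the median of all probes these were -1.36 and -0.99. With other scalings the relative changes lay between -1.36 and -1.04 and between -1.17 and -0.99. On the slide that held 24 h, the 2h25 min arrays of replicate 3 read 1.64 and 1.65, which was 0.86 above the mean of the 24 h arrays. With slide as a block the change from 10 min was -0.95 and no longer passed (adjusted p = 0.0516). In air and in pollen, every array of 24 h lay below every array of 10 min.

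IL13RA1 fell by 24 h too, at both probes. The downstream probe read 2.15, 2.29 and 2.47 in air and 2.30, 2.29 and 2.56 in pollen at 24 h, against 2.63, 2.75 and 2.70 and 2.52, 2.80 and 2.69 at 10 min. All but 1 of the 24 h arrays lay below all of the 10 min arrays. The change was -0.34 (SE 0.08, limma adjusted p = 0.000895) at the downstream and -0.36 (SE 0.08, adjusted p = 0.000628) at the upstream probe. Neither passed with slide as a block, at -0.47 (adjusted p = 0.255) and -0.25 (adjusted p = 0.58). Within the slide of 24 h, the arrays of 2h25 min were 0.47 and 0.25 above the mean of 24 h at the downstream and the upstream probe.

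**Figure D5:**
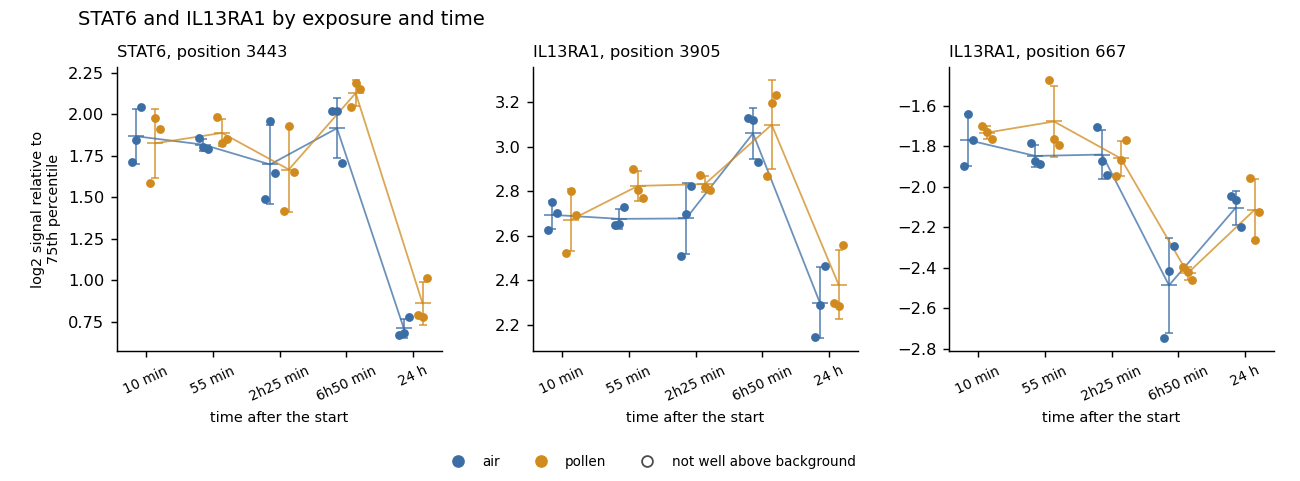
Panels show STAT6 and both IL13RA1 probes, with time on the x axis and log2 signal relative to the array's 75th percentile on the y axis; points are arrays and bars the mean and SD of 3 for air and pollen. STAT6 lies at 0.67 to 1.01 at 24 h and at 1.42 to 2.19 before, and the IL13RA1 probes move in opposite directions at 6h50 min.

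At 6h50 min the probes of a gene moved apart. The downstream probe of IL13RA1 rose by 0.32 (SE 0.08, limma adjusted p = 0.00176) from 2h25 min and the upstream one fell by 0.61 (SE 0.08, adjusted p = 3.00e-06). At the same step IL4R rose by 0.33 (SE 0.09, adjusted p = 0.00311) at position 3523 and fell by 1.41 (SE 0.13, adjusted p = 3.50e-08) at position 650, and with normexp these changes were 0.14 (adjusted p = 0.281) and -0.02 (adjusted p = 0.899) and did not pass. STAT6, with a probe at position 3443 only, rose by 0.34 (SE 0.10, adjusted p = 0.00563). With slide as a block 3 of the 11 member probes passed at this step, in place of 7. The rises of the downstream IL13RA1 probe and of STAT6 were then 0.31 (adjusted p = 0.072) and 0.32 (adjusted p = 0.131) and did not pass. In the deposited log2 values the upstream IL13RA1 probe changed by -0.36 and did not pass (adjusted p = 0.0684), and over the settings that left out no array its change ran from -0.64 to -0.25. Relative to the median of all probes the rise of IL4R was 0.47 and turned to -0.13 with normexp, while those of IL13RA1 and STAT6 stayed above 0 under each scaling, at 0.10 or more. From 6h50 min to 24 h the downstream probes went back by -0.74 (SE 0.08, adjusted p = 1.14e-07) for IL13RA1 and -0.47 (SE 0.09, adjusted p = 8.19e-05) for IL4R. The upstream ones went the other way, by 0.35 (SE 0.08, adjusted p = 0.000785) at position 667 of IL13RA1 and 1.13 (SE 0.13, adjusted p = 2.31e-07) at position 650 of IL4R. With normexp the last 2 were 0.14 and 0.05 and did not pass, and the rise at position 667 also did not pass with own percentiles, at 0.31 (adjusted p = 0.0696), or in the deposited values, at 0.25 (adjusted p = 0.181).

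Over other genes of the array, the medians showed a smaller split in the same direction. Pairs of probes at least 1000 bases apart on 1 transcript were compared, a choice made after the data were seen. The 1505 pairs held probes above background on every array, a rule that the IL4R probe at position 650 did not meet. Their median change into 6h50 min was 0.08 at the downstream and -0.08 at the upstream probe. The upstream probe fell more in 62.8% of pairs. On the 6 arrays of 6h50 min the median of downstream minus upstream was 0.03 to 0.20, against -0.09 to 0.06 on the other 24. Between pollen and air at 6h50 min this median was -0.04. IL4R differed by 0.49 at the downstream and 0.09 at the upstream probe. The part of the probe position, the slide and the dimmer signal in these changes and differences was not tested.

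Of the tested genes near background on part of the arrays, CRLF2 had the widest change between times. Its probe at position 422 read -6.29, -6.40 and -7.27 in air and -6.84, -6.87 and -6.08 in pollen at 6h50 min. The arrays of 2h25 min lay far above these, with -4.18, -3.32 and -4.62 in air and -4.08, -3.84 and -4.56 in pollen. No air array of 6h50 min was well above background. The lowest signal well above background on each array, or the spot's own where higher, therefore stood in for its value. Against this, the air signal was 5.77-fold higher at 2h25 min and 4.82-fold higher at 24 h. These folds are not strict lower limits. Air replicate 1 of 6h50 min failed the mark at -6.29, while the lowest passing signal of its array was -6.34. The fitted changes were -2.52 (SE 0.34) and 2.26 (SE 0.34), and with normexp they were -0.18 (adjusted p = 0.363) and 0.23 (adjusted p = 0.254) and did not pass. The second CRLF2 probe followed the first over the 10 groups, with a Pearson r of 0.83 as a description.

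Relative to the percentile of each array, TSLP was higher at 6h50 min, the reverse of what CRLF2 showed on the same arrays. Before this scaling its mean signal was not higher, at 12.6 intensity units in air and 13.3 in pollen. At 2h25 min these means were 13.7 and 15.9. The part of the dimmer slide in the scaled rise was not tested. On the log2 scale TSLP read -5.88, -5.66 and -6.29 in air and -5.76, -5.67 and -5.98 in pollen. Its change from 2h25 min was 0.87 (SE 0.28, limma adjusted p = 0.0123). Relative to the median of all probes it stayed above 0 under each scaling, between 0.31 and 1.39, and with slide as a block it was 0.97 and did not pass (adjusted p = 0.111). The rise of 0.73 from 10 min to 24 h (SE 0.28, adjusted p = 0.0306) was less steady, since leaving out 1 array ended the call for each of 5 arrays, air replicate 3 and pollen replicates 1 and 3 of 10 min, and air replicate 1 and pollen replicate 3 of 24 h. The change was then 0.46 to 0.72, and with slide as a block it was -0.28. IL2RG at position 1457 changed by -0.71 into 6h50 min and by 0.71 out of it, and neither passed (limma adjusted p = 0.0562 and 0.05002). Both passed with array weights (adjusted p = 0.00231 and 0.00865) and on the arrays of the compared times alone (adjusted p = 0.0143 and 0.0319). The change out of 6h50 min also passed with normexp and quantile normalization, at 0.29 (adjusted p = 0.0176), whereas with normexp alone the changes were 0.27 and -0.05. Leaving out 1 array made the first pass for each of 3 arrays, air replicate 1 of 2h25 min and air replicate 1 and pollen replicate 3 of 6h50 min, and the second for each of 5, the same 2 of 6h50 min and air replicate 1 and pollen replicates 1 and 3 of 24 h.

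Over the 10 group means, the downstream probes of IL4R and IL13RA1 ran against the other probes of their gene, while the upstream probes of IL4R ran together. Pearson r was -0.61 between the IL4R probes at positions 3523 and 650, -0.27 between 3523 and 271, and 0.59 between 650 and 271. It was -0.35 for IL13RA1 and 0.28 for IL2RG. These are descriptions over 10 groups that share arrays and slides.

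Genes whose 10 group means ran most like those of a member were taken from 17992 genes above background on every array. For STAT6 the closest were a transcript with no gene symbol and ATP8A1, both at r = 0.99, and EIF2B3 at 0.99. For IL13RA1 they were F11R, which codes for a tight junction protein, at 0.99, LSM5 at 0.99 and SCCPDH at 0.98. For IL4R they were PDLIM4 at 0.97, OSMR, the receptor chain of oncostatin M, at 0.96 and DGCR11 at 0.96. These values describe 10 means of groups that share slides.

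The other genes of the pathway were a list of 59, of which 41 could be tested, 31 passed the mark for background on every array and 14 on none. The type 2 cytokines IL4, IL5, IL9 and IL13 gave 0 of 4 tested. All 10 kinases and adaptors below IL4R and all 11 inhibitors were tested, as were 8 of 9 other alarmin receptor chains and 12 of 25 epithelial target genes of IL-4 and IL-13. Of the 41 genes, 1 passed for pollen against air, at 2h25 min and for the mean of the 5 times, where 0.0343% and 0.00935% of all tested probes did. SOCS3, an inhibitor of cytokine receptor signalling, had a mean of -0.53 ± 0.24 (SD, n = 3) in air and 0.61 ± 0.17 in pollen at 2h25 min, a difference of 1.14 (SE 0.15, limma adjusted p = 0.00153). Its lowest pollen array read 0.41 and its highest air array -0.29. The mean over the 5 times was 0.41 (adjusted p = 0.0317). At 2h25 min it did not pass with the 75th percentile of each array's own probes (adjusted p = 0.514), in the deposited log2 values (0.362), on the arrays of that time alone (1.00) or within 1 slide (1.00), where the differences were 1.17, 1.09, 1.14 and 1.36.

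Over time the same 41 genes went both ways. From 10 min to 24 h 9 rose and 17 fell, where 23.6% and 29.3% of all tested probes did, with a median of -0.24 against -0.07 for all. With slide as a block 1 rose and 2 fell, where 2.14% and 3.47% of all probes did, and these were PTPN11 at 0.93, the phosphatase PTPN6 at -1.24 and SERPINB4 at -4.52. The change of STAT5A was then -0.11 (adjusted p = 0.939). Among those that fell were STAT5A, a transcription factor related to STAT6, by 1.05, the TSLP receptor chain IL7R by 1.46, and the targets TGM2, a transglutaminase, by 1.86, SERPINB3 by 2.89 and SERPINB4 by 3.19. SERPINB3 and SERPINB4 are near-identical in sequence, so their signals may be shared. IL7R was well above background on 7 of 30 arrays and its fall turned to a rise of 0.11 with normexp. Those that rose most were FOXA2, a transcription factor of airway epithelium, by 2.16, the phosphatase PTPN11 by 0.99, the IL-33 receptor chain IL1RAP by 0.75, the kinase IRAK1 below it by 0.66, and the adaptor IRS2 by 0.63.

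Into 6h50 min 5 of the 41 rose and 18 fell, with 16.8% and 33.0% of all probes as the background. With slide as a block 2 rose, PTPN2 and IL17RA, and 8 fell, where 7.02% and 14.3% of all probes did. SOCS3 and IL7R were among these 8, while SERPINB3, ALOX15 and CLCA1 were not. PTPN2 rose by 0.50, the kinase TYK2 by 0.44, SOCS2 by 0.40, the IL-25 receptor chain IL17RA by 0.39 and STAT5B by 0.24. SOCS3 fell by 1.32, and IL7R, SERPINB3, ALOX15 and CLCA1 fell by 1.77, 1.39, 1.30 and 1.23, but these 4 were well above background on 7 to 22 arrays and rose instead with normexp. From 6h50 min to 24 h 11 rose and 11 fell, against 34.5% and 21.4%, and with slide as a block 5 rose and 7 fell, against 16.2% and 11.2%. PIAS1 rose by 1.01 and PTPN11 by 0.96, both inhibitors, and the chemokine CCL24 by 0.63, while CLCA1 at 1.53 and ALOX15 at 1.26 turned to -0.26 and -0.27 with normexp. SERPINB4 fell by 2.50, SERPINB3 by 1.71, TGM2 by 1.36, SOCS2 by 1.04 and the target DPP4 by 0.74. With slide as a block CCL24 was at 0.51 (limma adjusted p = 0.363) and SERPINB3 at -1.76 (adjusted p = 0.0533). Neither passed, nor did CLCA1 and ALOX15.

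The earlier steps moved few of them. Between 10 min and 55 min IRS2 rose by 0.47, and the inhibitors CISH and SOCS1 fell by 0.73 and 0.56, where 2.14% of all probes rose and 1.28% fell. With slide as a block none of the 3 passed, at 0.31, -0.50 and -0.11, and 0.0312% of all probes did. Between 55 min and 2h25 min SOCS3 rose by 0.90 and no other gene of the list passed, where 0.461% of all probes rose and 0.193% fell.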

How the data were processed

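BEAS-2B cultures exposed to air, or to birch pollen from 10 mg loaded into the chamber, were measured on 30 arrays, 3 per exposure and time. The repeats were made on different days per the methods. The authors deposited spot intensity values, which per the file headers Feature Extraction 11.0.1.1 had background-subtracted and detrended, and a table of log2 values, which was quantile normalized and at 24 h names its columns such that they match other arrays of the same group; it served as an alternative only. Probe positions are on hg19.

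Spots marked uneven or as outliers were left out, replicate spots were averaged, and log2 signals were centred per array on the 75th percentile of the 33873 probes that both designs share. The 32099 probes detected above background in each of the 3 arrays of 1 group or more were fitted in R 4.3.3 with limma 3.58.1 (lmFit, eBayes) on 10 group means. A probe passed where its Benjamini-Hochberg adjusted p was under 0.05 and its change at least 1.1-fold. The signal over background and 3 arrays per group limit precision. Scripts were tested on simulated data. The alternatives were other scalings, normexp with offset 50, quantile normalization, filters, array weights, blocks, within-slide fits and leaving out arrays. Samples of 1 replicate number deviated together at 10 min (r 0.41 to 0.45), 2h25 min (0.48 to 0.62) and 24 h (0.29 to 0.72), but not in every pair at 55 min (-0.03 to 0.33) and 6h50 min (-0.04 to 0.20).

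All 10 genes were named, and the probe with the highest mean stood for a gene. Of the pathway list, every gene that passed for pollen against air was named and up to 5 in each direction between times, and the 3 most alike genes of members measured on every array. Members and lists were chosen with earlier results of these data known.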

Additional observations from a re-analysis of the deposited data

Results flagged for a closer look

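The pollen effect on IL2RG at position 1457 ran one way at 10 min and the other way at 2h25 min, in all 3 replicates of each. Pollen minus air was 0.28 at 10 min, with every pollen array above the air array of its number, and -0.48 at 2h25 min, with every one below. The arrays of the exposures overlapped at both times, neither difference passed, and the change from 10 min to 2h25 min was not tested.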

How the results depend on the processing

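With another processing, the number of member probes that passed moved as follows. For pollen against air at 6h50 min it was 1 with normexp, with normexp and quantile normalization, and with array weights, in place of 0; over all probes the number was 14 and ranged from 0 on the arrays of that time alone to 530 with array weights, with 3 in the deposited table and without the filter, 5 with own percentiles, quantile normalization or dim areas left out, 150 with normexp, 304 with normexp and quantile normalization, 47 for probes above background on every array, 135 with the replicate block and 19 with slide as a block, while leaving out 1 array gave 0 (without air replicate 1) to 508 (without air replicate 3) and 2 without pollen replicate 2. From 10 min to 55 min it was 1 with normexp and quantile normalization, 2 with array weights and 1 in the deposited table, in place of 0 (4.73%, 18.7% and 2.56% of all probes). Into 6h50 min it was 4 of the 4 members above background on every array (11599 of 23659 probes) and 3 with slide as a block (6832 of 32099), in place of 7 of 11 (15962 of 32099). From 6h50 min to 24 h it was 5 with normexp (17570) and 4 of 4 for probes above background on every array (13627 of 23659), in place of 8 (17945). From 10 min to 24 h it was 1 with own percentiles (12033), 7 with normexp (16016) and 0 with slide as a block (1801), in place of 4 (16991). Leaving out 1 array gave 0 to 0 for each comparison of pollen with air, and 0 to 1, 0 to 0, 7 to 9, 8 to 10 and 3 to 6 for the 5 comparisons of times. With the replicate block no member passed for pollen against air (IL4R at 6h50 min, adjusted p = 0.0555), and of the 19 passes over time only that of TSLP from 10 min to 24 h was lost (adjusted p = 0.0646).

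Of those 19, 2 (the falls of STAT6 and of the downstream IL13RA1 probe from 6h50 min to 24 h) kept direction and call under every listed setting that left out no array. With normexp, changes turned sign for IL33 into 6h50 min (0.73) and out of it (-0.37), for IL4R at position 650 from 10 min to 24 h (0.25), for IL4R at position 271 into 6h50 min (0.59) and out of it (-0.18), and for CRLF2 at position 274 into 6h50 min (0.69) and out of it (-0.28); with slide as a block that of TSLP from 10 min to 24 h did (-0.28). The cause was not tested. For genes near background, signal over background is the limit.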
